A study of Mus musculus with 4 samples.

Results

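The NMDA receptor subunits Grin1, Grin2a, Grin2b, Grin2c and Grin2d were described in the dentate gyrus, the hippocampal field of granule cells, as every probe set of the deposited value table whose single annotated gene symbol is 1 of these 5 genes. There were 4 such probe sets, 1 each for Grin2a, Grin2b, Grin2c and Grin2d, among 10833 probe sets with a single gene symbol and 12488 in all. Grin1 was not analysed here. Total RNA came from the dentate gyrus of young male C57BL/6J mice that an experimenter handled and that received no other treatment. The 4 samples were extracted 1, 2, 4 and 6 h after the last shock given to other, experimental mice, which were not analysed here. Each hour is 1 array, and the sources used here give neither the number of mice behind a sample nor their exact age.

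NMDA receptors are glutamate-gated ion channels that let calcium into the neuron when glutamate, a co-agonist such as glycine or D-serine, and depolarisation coincide. Each channel combines the obligatory subunit GluN1, encoded by Grin1, with GluN2 subunits, which bind glutamate and set how fast the channel closes and how strongly magnesium blocks it. In the adult hippocampus GluN2A and GluN2B, from Grin2a and Grin2b, are the principal GluN2 subunits of excitatory neurons and carry much of synaptic plasticity. GluN2C, from Grin2c, is best known from cerebellar granule cells and is also found in astrocytes, and GluN2D, from Grin2d, is found in interneurons.

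Of the 4 members, RefSeq promoter sequences (assembly GRCm38.p6, 250 bases before to 50 after the annotated start) matched Grin2c and Grin2d. These 2 are shown because no promoter sequence was found for Grin2a or Grin2b. Grin2c had the one probe set well above the low end of the arrays and Grin2d the steadiest readings. Both were read highest at 4 h on the deposited scale. The Grin2c promoter is chr11:115267194-115267493 and the Grin2d promoter chr7:45866632-45866931, both on the minus strand and printed 5′ to 3′ along the gene. Capitals mark GGGCGG, the GC box that Sp family factors bind, searched on both strands.
Grin2c: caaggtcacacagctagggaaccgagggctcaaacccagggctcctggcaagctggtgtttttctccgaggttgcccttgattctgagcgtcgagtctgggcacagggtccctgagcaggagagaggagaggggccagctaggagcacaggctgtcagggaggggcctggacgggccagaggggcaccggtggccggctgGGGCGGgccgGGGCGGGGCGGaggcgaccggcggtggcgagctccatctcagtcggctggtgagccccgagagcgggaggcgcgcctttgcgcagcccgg
Grin2d: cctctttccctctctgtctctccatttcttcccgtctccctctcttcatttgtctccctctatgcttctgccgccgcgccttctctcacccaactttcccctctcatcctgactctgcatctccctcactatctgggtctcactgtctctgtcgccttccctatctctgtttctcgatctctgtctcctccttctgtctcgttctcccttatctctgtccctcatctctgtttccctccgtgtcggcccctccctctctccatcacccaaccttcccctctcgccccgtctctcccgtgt
The Grin2c stretch held 3 GC boxes, 2 of which overlap each other, and 70% of its bases were G or C, against a median of 52.7% over 32851 promoters of the same length. The Grin2d stretch had 56% G or C, is rich in C and T, and held no GC box. A GC box stood in 35.7% of all promoters. Neither stretch held an E-box (CACGTG, in 7.15% of promoters), a CRE (TGACGTCA, in 1.79%) or a TATA box (TATAAA, in 13.6%), on either strand.

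Values are array intensities on the linear scale of the deposited table, given in the order 1, 2, 4 and 6 h. Readings below a floor of 38.3, the 20th percentile of the whole table, were raised to it before log2 was taken, and a probe set entered the trend test if its mean log2 intensity reached the 40th percentile of the single-gene probe sets (6.91, an intensity of 120). Of the 4 members, Grin2c alone passed this filter. The mean without the brightest and the dimmest 2% of probe sets was 500.3 on all 4 arrays, while the median was highest at 4 h (212.8, against 184.8 to 187.3 at the other hours). Scaling each array to its median would therefore move all probe sets at 4 h by −0.15 log2 relative to the mean of the 4 hours. Of 17 listed granule cell markers, 11 had a probe set, and 10 of these were past the filter with their brightest probe set. The filter passed 6500 of all 10833 single-gene probe sets, so this count by itself does not identify the tissue. The summed intensity of the 11 genes was 12717, 13374, 12060 and 12168. As the samples are pieces of tissue, fewer cells of a type and less RNA per cell cannot be told apart.

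Grin2c, the GluN2C gene (probe set 97726_at), read 512.3, 826.9, 839.8 and 668.6, a mean of 712 ± 154 (SD, n = 4). It was low at 1 h, nearly level at 2 and 4 h and in between at 6 h. The sample at 1 h lay 0.60 log2 below the mean of the other hours, and the sample at 4 h lay 0.35 above it. The 4 h intensity was 1.64-fold that at 1 h, and the 6 h intensity was 1.31-fold that at 1 h. As each hour is 1 array, these differences have no replicate error. A span of this size or more between the highest and the lowest hour was seen in 39.8% of the 6500 probe sets past the filter, whose median span was 1.53-fold, and the SD of Grin2c over the 4 samples was 0.33 log2, against a median of 0.27. With arrays scaled to their medians Grin2c was highest at 2 h (850.3) and read 760.3 at 4 h. With quantile normalization it was highest at 4 h (846 against 828.8 at 2 h). It was lowest at 1 h as deposited, with median scaling and with quantile normalization.

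No trend of Grin2c on the hour was called. Its fitted slope was 0.05 log2 per h with an SE of 0.08 (n = 4), and limma gave an adjusted p of 1.00 (Benjamini-Hochberg over the 6500 probe sets). With limma, 0 of 6500 probe sets were called with a positive slope (0%) and 0 with a negative slope (0%). At an unadjusted p under 0.05 there were 136 (2.09%), 76 with a positive slope (1.17%) and 60 with a negative one (0.923%), and Grin2c was not among them. The smallest adjusted p of any probe set was 0.496. Without the 1 h sample the Grin2c slope was −0.08, and without the 6 h sample it was 0.21.

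**Figure D1:**
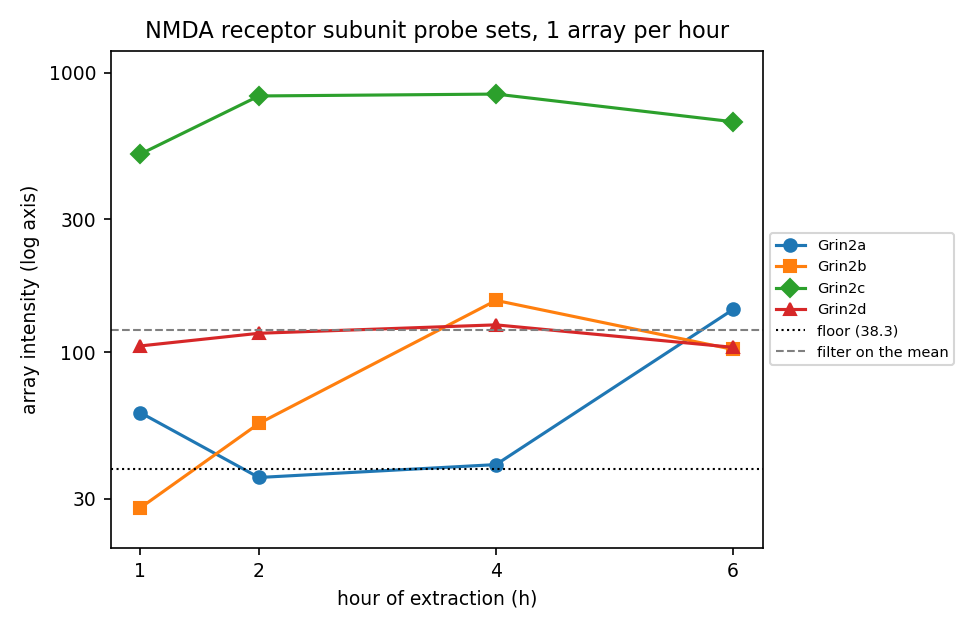
Array intensity (log axis) of the 4 NMDA receptor subunit probe sets at each hour of extraction, 1 array per point, with the floor and the filter on the mean as horizontal lines. Grin2c runs from 512.3 to 839.8, Grin2d stays between 104.3 and 125.5, and Grin2a and Grin2b each have 1 reading below the floor of 38.3; heights of different probe sets are not comparable amounts of RNA.

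Grin2d, the GluN2D gene (99382_at), read 105.5, 117.1, 125.5 and 104.3, a mean of 113 ± 10.1 (SD, n = 4). Its highest reading was 1.20-fold its lowest, and no hour stood more than 0.21 log2 from the mean of the others. All 4 readings were above the floor. Grin2d fell just short of the filter, with a mean log2 intensity of 6.82 against 6.91. Its slope in a fit of all 10833 single-gene probe sets without a filter was −0.003 ± 0.09 log2 per h (SE, n = 4; limma adjusted p = 1). The hour of its highest value was 4 h as deposited and 2 h with median scaling or quantile normalization.

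The probe sets of the GluN2A and GluN2B genes read near the low end of the arrays. Grin2a (100726_at) read 60.9, 35.7, 39.7 and 142.5, with the 2 h value below the floor and the 4 h value just above it. The 6 h sample was thus the one high reading, 2.34-fold that at 1 h and at least 3.72-fold that at 2 h. Without the 6 h sample the span of Grin2a was 1.53-fold. Grin2b (101312_at) read 27.8, 55.7, 153.5 and 102.5, with the 1 h value below the floor. Its high readings were at 4 and 6 h, and the 4 h intensity was at least 4.01-fold that at 1 h and 2.76-fold that at 2 h. Grin2a and Grin2b therefore did not share an order of hours: at 4 h Grin2b was at its highest and Grin2a near the floor.

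These 2 spans lie in the range of intensities where wide spans are common. A span over 2-fold was seen in 2 of the 3 members under the filter, against 52.9% of all 4333 single-gene probe sets under it. It was seen in 0 of 1 member past the filter, against 21.6% of the 6500 past it, and in 2 of all 4 members, against 34.1% of all 10833. With the floor at the 30th percentile the spans were 1.94-fold for Grin2a and 2.09-fold for Grin2b. In the fit without a filter, where 0 of 10833 probe sets (0%) had an adjusted p under 0.05 and 327 an unadjusted one (3.02%), the slopes were 0.25 ± 0.18 log2 per h for Grin2a and 0.32 ± 0.15 for Grin2b (SE, n = 4; limma adjusted p = 1 for both). Neither was among the 327.

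**Figure D2:**
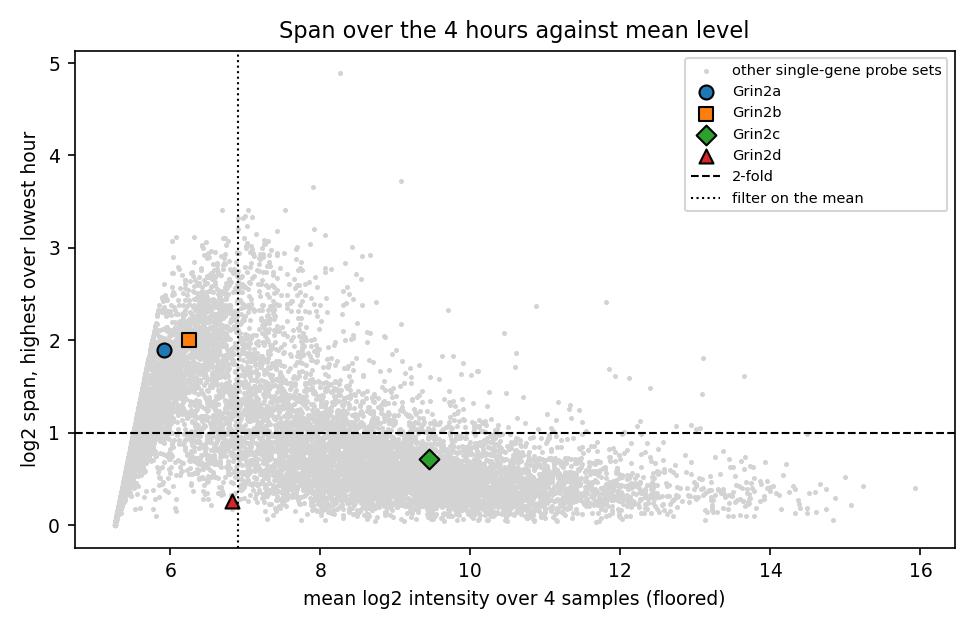
Log2 span between the highest and lowest hour against mean log2 intensity over the 4 samples, for each single-gene probe set (grey) and the 4 members (coloured). Grin2a and Grin2b lie left of the filter among widely spread dim probe sets, Grin2d beside the filter with a 1.20-fold span, and Grin2c to the right of it under the 2-fold line.

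Grin2b, Grin2c and Grin2d all had their highest reading at 4 h on the deposited scale, an hour that held the highest reading of 32.9% of all probe sets past the filter. With median scaling 4 h held the highest reading of 18.4% of them, and of these 3 members Grin2b alone kept its peak there. With quantile normalization the share was 30.3%, and Grin2b and Grin2c kept their peaks at 4 h while Grin2d did not. The order of hours of Grin2c (4 h, then 2, 6 and 1 h) was found in 391 of the 6500 probe sets past the filter, or 6.02%.

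By Euclidean distance between log2 values centred on their own means over the 4 samples, the courses nearest to Grin2c were those of Cryab, Gstz1 and Gata2. Cryab, a small heat shock chaperone, read 239, 367.6, 379.7 and 297.2. Gstz1, an enzyme of tyrosine breakdown, read 418.7, 683.3, 652.7 and 537.9. Gata2, a zinc finger transcription factor, read 283.5, 464.3, 494 and 393. All 3 were lowest at 1 h, at distances of 0.0569, 0.0668 and 0.0785 log2, and 4 arrays give such closeness little weight. A second Cryab probe set ran otherwise, with 136, 98.2, 86 and 93.2. A second Gata2 probe set, at 7.4, 53.6, 6.4 and 51.8, was below the floor at 1 h and at 4 h.

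Summed markers of astrocytes, of cerebellar granule and Purkinje cells and of interneurons were set beside the course of Grin2c. Of these cell types, astrocytes and cerebellar granule cells are the ones named above for GluN2C. The summed intensity of astrocyte markers (10 of 12 listed genes with a probe set, 9 past the filter) was 80675, 74531, 75768 and 79088, a span of 1.08-fold. Its highest hour rested on Mt3, a metallothionein: without that gene the sum was highest at 6 h (53653, 49863, 54302 and 57947). Single astrocyte genes differed in their hours. By the brightest probe set of each of the 10, 5 were highest at 1 h, the hour at which Grin2c was lowest. The lowest reading was at 2 h in 4 genes, at 4 h in 3 and at 6 h in 2. Aldoc, a glycolytic enzyme, was the one lowest at 1 h. Aldoc read 9752, 11095, 14130 and 12712, highest at 4 h. Dimmer probe sets of Aqp4 (199.4, 222.4, 276.3 and 215.2) and Cst3 (1258, 1610, 1356 and 1789) were also lowest at 1 h. Those of Gfap, Gja1, Glul and Fgfr3 were not. The dimmer Aqp4 probe set had the order of hours of Grin2c, while the brighter one was lowest at 4 h. The sum of cerebellar granule and Purkinje cell markers (9 of 12 with a probe set, 7 past the filter) was 6170, 5892, 5708 and 5194. It was led by Pvalb and Calb2, which interneurons and mossy cells also express. Gabra6, a GABA receptor subunit that defines cerebellar granule cells, had 2 probe sets under the filter. They read 91.4, 72.9, 128 and 26.7 and 43.3, 75.7, 10.6 and 20. The brightest probe sets of Pcp2, Cbln1, Zic1 and Zic2, of the same list, were past the filter. Pcp2 read 297.1, 224.5, 243.2 and 741.1, and Cbln1 read 372, 260.7, 310.7 and 207.1. Zic1 read 201.3, 383.5, 175.9 and 250.8, and Zic2 read 237.7, 421, 387.5 and 211.6. Interneuron markers (12 of 12 with a probe set, 7 past the filter) summed to 15647, 16033, 13596 and 13198.

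Of the 9 marker lists, the choroid plexus list was the one whose sum had the same order of hours as Grin2c. That order is 1 of 24 possible ones and was found in 6.02% of the 6500 probe sets past the filter. A match in 1 of 9 lists is therefore given little weight. The choroid plexus list had a probe set for 5 of 7 genes, 3 of them past the filter. None was below the floor at all 4 hours with its brightest probe set, and the genes summed to 2159, 4961, 5805 and 3087. The sum was led by the growth factor gene Igf2, with 1849, 4402, 2955 and 2521, and by the thyroid hormone carrier gene Ttr, with 81.3, 233.6, 2408 and 191.2. Ttr by itself had the order of hours of Grin2c, and Igf2, highest at 2 h, did not. A second Igf2 probe set, not in the sum, read 11.1, 18, 39.1 and 22.7, below the floor at 1, 2 and 6 h. Without Ttr the sum was highest at 2 h (2078, 4728, 3397 and 2896) and the match ended. It also ended with median scaling, where Grin2c was highest at 2 h and the sum at 4 h (5255, against 5102 at 2 h), and it held with quantile normalization. With Ttr left out and median scaling together, the orders matched again (2156, 4861, 3075 and 3019). With Ttr left out and quantile normalization they did not. These settings were chosen after seeing the data. Both Grin2c and the sum were lowest at 1 h in each of them. The part of choroid plexus tissue in the Grin2c values was not tested.

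**Figure D3:**
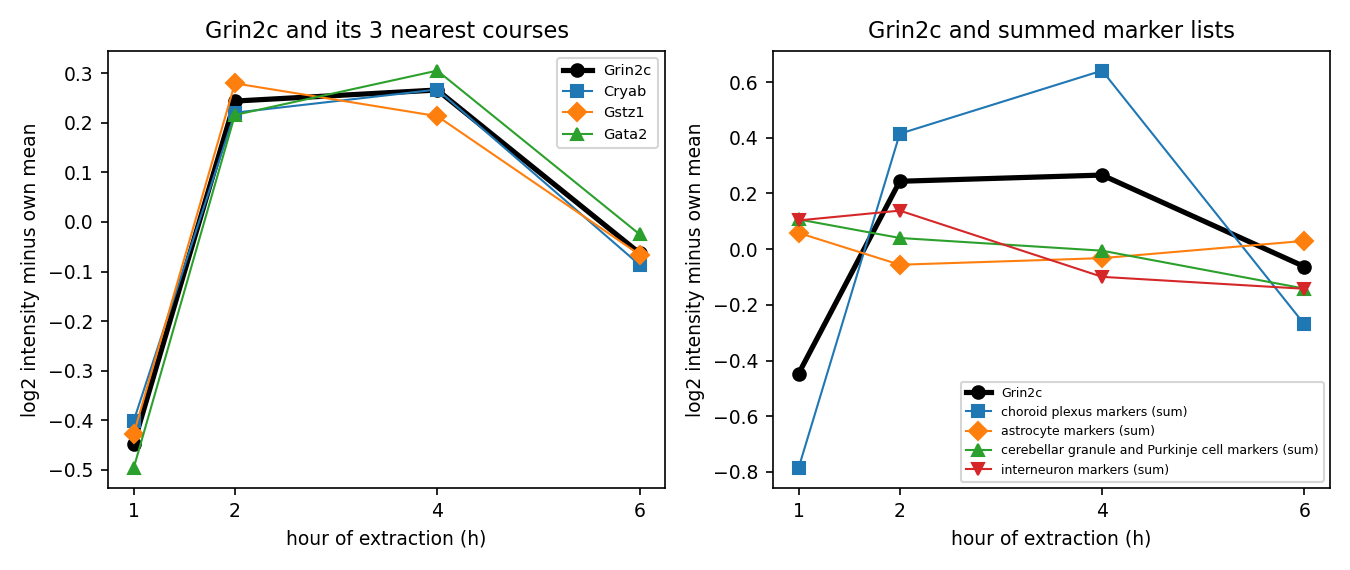
Log2 intensity minus its own mean over the 4 hours for Grin2c (black) with its 3 nearest courses (left) and with the summed intensity of 4 marker lists (right), against the hour of extraction, 1 array per point. On the deposited scale drawn here, Grin2c is lowest at 1 h, as are its neighbours and the choroid plexus sum. The sums of the astrocyte, interneuron and cerebellar lists span 1.08-fold to 1.21-fold. With median scaling these 3 sums span 1.22-fold, 1.34-fold and 1.24-fold and are lowest at 4 h. With quantile normalization they span 1.07-fold, 1.20-fold and 1.19-fold.

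The other genes of the receptor's signalling complex gave no called trend. Grina, named for an NMDA receptor-associated protein though not a channel subunit, was the one gene with a probe set among 14 further subunit and membrane partner genes. Its probe sets read 3115, 1954, 3883 and 2937 and 8608, 6181, 9930 and 7133. Both were lowest at 2 h and highest at 4 h, with spans of 1.99-fold and 1.61-fold.

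Of 36 scaffold and anchor genes, which hold the receptor at the postsynaptic density, 16 were tested with 18 probe sets. None was called in either direction by limma, 0 had an unadjusted p under 0.05, 6 slopes were positive and the median slope was −0.01 log2 per h. Over all 6500 probe sets 49.9% of slopes were positive and the median slope was −9.88e-05. The widest spans were those of Akap9 (yotiao), an anchoring protein that binds GluN1, at 300, 133.3, 325 and 437.9, and of Lin7b, a PDZ adaptor that also works in presynaptic complexes, at 221.4, 164.7, 272.6 and 385.1. Both were lowest at 2 h and highest at 6 h.

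Among kinases and phosphatases that act on the receptor, 21 of 32 genes were tested with 25 probe sets, 0 were called by limma in either direction, 0 had an unadjusted p under 0.05, and 8 slopes were positive (median −0.02). Cdk5r1, the activator p35 of Cdk5, read 86.5, 147, 201.7 and 151.4. Ppp3cb, a catalytic subunit of the calcium-activated phosphatase calcineurin, read 1134, 561.9, 590.8 and 681.4. The first was lowest and the second highest at 1 h.

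Of 21 calcium and nitric oxide effectors, 7 were tested with 7 probe sets, and 0 were called by limma in either direction. The calcium-activated protease gene Capn1, at 517.6, 101.8, 109.8 and 77, was the one with an unadjusted p under 0.05. Its slope was −0.43 ± 0.18 log2 per h (SE, n = 4, limma adjusted p = 1.00), and its course is 1 high reading at 1 h. Nrgn, the calmodulin-binding neurogranin of dendritic spines, read 7614, 3093, 2518 and 6526, high at 1 and 6 h.

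Of 20 genes that handle glutamate and the co-agonists, 9 were tested with 10 probe sets, 0 were called by limma in either direction, 0 had an unadjusted p under 0.05, and 6 slopes were positive (median 0.03). Dao, which breaks down the co-agonist D-serine, read 239.2, 116.2, 248.5 and 42.3, ending close to the floor. Glul, the glutamine synthetase of astrocytes, read 623.5, 401.1, 612 and 724.7 with one probe set and 929.7, 967.7, 1238.5 and 837.3 with another, and the 2 disagreed on the highest hour.

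Of 19 transcription and RNA regulators reported for these genes, 15 were tested with 18 probe sets, 0 were called by limma in either direction, 0 had an unadjusted p under 0.05, and 7 slopes were positive (median −0.02). Sp4, a neuronal factor that binds GC boxes, read 200.4, 129.8, 69.6 and 223.4, so it was lowest at 4 h. Ptbp2, a neuronal splicing repressor, read 218.2, 403, 538.8 and 396.8, lowest at 1 h and highest at 4 h. A second Ptbp2 probe set, under the filter, was lowest at 6 h instead (93.8, 56.6, 108.8 and 33.7). A span over 2-fold was counted in 4 of 18 scaffold, 2 of 25 kinase and phosphatase, 2 of 7 effector, 1 of 10 glutamate handling and 5 of 18 regulator probe sets, beside the 21.6% of all probe sets past the filter.

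**Figure D4:**
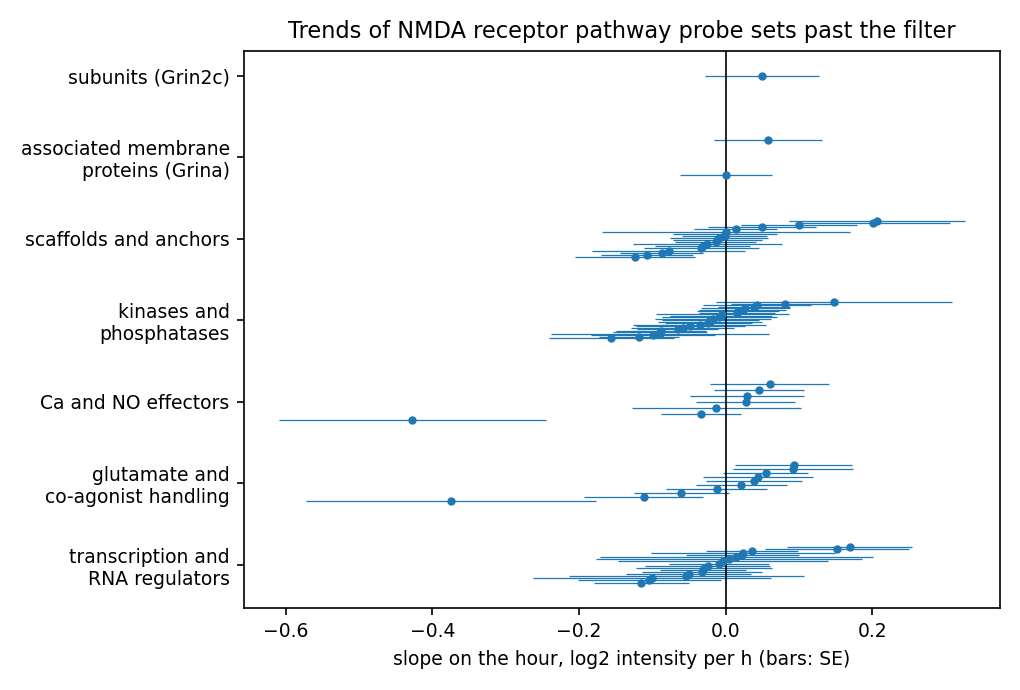
Slope of log2 intensity on the hour (points, with SE bars) for each probe set past the filter in the NMDA receptor lists, with 0 as the vertical line. Slopes lie on both sides of 0, Capn1 is furthest to the left at −0.43, and none was called.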

How the data were processed

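Per the labels, 4 samples of total RNA form 1 group of handled controls, with the hour from the titles. The deposited table gives the authors' array intensity per probe set. The sources used here do not give the software, the scaling or the array protocol, and a common scaling was inferred from equal trimmed means. Values were used as deposited. Of 12488 probe sets, 66 controls, 1193 without a symbol and 396 with several were left out. GEO's platform annotation named the rest, and 10817 of 10833 were updated by gene identifier through a RefSeq table (GRCm38.p6).

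The fit used probe sets, since the members are probe sets: log2 intensity on the hour with limma 3.58.1 in R 4.3.3 (lmFit, eBayes with an intensity trend, two-sided), with 2 residual degrees of freedom and 9.78 prior ones in the median, called at an adjusted p of 0.05. It was tested on simulated data. With 4 arrays, the absence of a call does not show that a probe set had no trend. P values measure the scatter of single arrays, which may be technical, around a line; the number of arrays limits the precision.

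The members and lists were chosen with earlier results of these data known. The lists are further subunits and membrane partners, scaffolds, kinases and phosphatases, effectors, glutamate and co-agonist handling, regulators, and markers of 9 cell types. Named are all member probe sets, the 3 courses nearest to a member past the filter, the 2 widest spans of each list and the 2 brightest genes of each marker list. Alternatives changed the floor, filter, scaling, probe set summary, variance model, time scale and samples.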

Additional observations from a re-analysis of the deposited data

Results flagged for a closer look

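Of 36 probe sets checked for a sample apart from the other 3, 2 were found, both of granule cell markers, and chance alone gives about 1 in 20. Bdnf, a neurotrophin gene, read 4998, 3748, 3754 and 3831. The gap between 1 h and its nearest neighbour was 0.924 of the whole log2 range, above Dixon's critical value for 4 samples. Calb1, a calcium-binding protein gene, read 2542, 3026, 2506 and 2453, and the gap of its 2 h sample was 0.831 of the range. None of the 4 subunit probe sets had such a sample.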

How the results depend on the processing

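The Grin2c slope stayed positive and uncalled in the 10 alternatives that kept all 4 samples (0.04 to 0.12, the highest per step in the order of the hours), and ran from −0.08 (without 1 h) to 0.21 when 1 sample was left out. It reversed without the 1 h sample (−0.077), with 1 residual degree of freedom. Without a filter the Grin2a slope ran from −0.18 (without 6 h, reversed) to 0.47 with 1 sample left out. That of Grin2d, close to 0, became 0.00504 on the order of the hours, and ran from −0.042 (without 1 h) to 0.079 (without 6 h), also positive without 2 h (0.0036). The cause was not tested. No probe set was called in the 10 alternatives with all samples, and leaving out 1 sample gave 0 to 18 calls (18 without 1 h, 3 without 2 h and 2 without 6 h). The share of probe sets spanning over 2-fold was 34.1% with no filter and 9.07% with the filter at the 60th percentile, which follows from the dim probe sets let in or left out, and ran from 11.4% to 15.9% with 1 sample left out, where 3 arrays are compared. The spans of Grin2a and Grin2b depend on the floor, because each has a reading below it. Grin2c spanned 1.26-fold without the 1 h sample. No paired analysis was possible because the labels give 1 group. Signal near the low end of the arrays limits what can be said of Grin2a and Grin2b.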

Other observations

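Genes in this paragraph were chosen after their values were seen. Dlg4, the scaffold PSD-95 that binds the tails of GluN2 subunits, read 680.3, 1150, 611.4 and 561.3, highest at 2 h. Its relatives read 1389, 1286, 939.6 and 1000.1 (Dlg1, SAP97) and 753.5, 621, 854.3 and 665 (Dlg3, SAP102), so the 3 did not share a highest hour. Camk2b, the beta subunit of the calcium/calmodulin kinase that binds GluN2B, read 13283, 11472, 11284 and 13783, a narrow range. Both probe sets of its partner Camk2a had means under the filter, at 127.2, 50.1, 51.2 and 45.4 and at 10.4, 9, 85.7 and 18, although Camk2a is known as an abundant kinase of hippocampal neurons. Fyn, a tyrosine kinase of GluN2B, read 2470, 2073, 1547 and 2537, lowest at 4 h. That hour held the lowest reading of 28.4% of all probe sets past the filter.

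The brightest markers of the other cell types were Rgs14 (3547, 3184, 4038 and 3159) and Bok (1585, 1863, 2081 and 1149) for the CA fields. For interneurons they were Gad1 (3985, 4036, 3713 and 3492) and Sst (3604, 4223, 3194 and 3272), and for astrocytes Cst3 (30309, 26479, 29698 and 32428) and Mt3 (27022, 24668, 21466 and 21142). For oligodendrocytes they were Mobp (5064, 5546, 6074 and 6271) and Bin1 (4426, 4117, 4350 and 4347), and for microglia Ctss (2197, 2660, 2317 and 2859) and C1qc (1284, 1409, 1896 and 1529). Vascular genes were Eng (973.7, 849.6, 1022 and 826.9) and Cldn5 (705.2, 657.5, 516.3 and 379.8). Pvalb (3385, 2529, 2753 and 2305) and Calb2 (1060, 1173, 1179 and 793.4) led the cerebellar list. The remaining sums were 7444, 7448, 8830 and 6251 for CA field markers, 15019, 14905, 15498 and 16249 for oligodendrocytes, 8008, 8559, 7667 and 8599 for microglia and 3018, 2940, 3085 and 2355 for vascular cells.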
